A study of Homo sapiens with 8 samples.

Results

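Gained distal H3K9ac peaks are the sites over 10 kb from the closest gene start in the authors' annotation at which acetylation of histone H3 at lysine 9 was called in butyrate-treated KGN cells and not in control cells. They numbered 24928 of the 79356 H3K9ac peaks of the butyrate list (31.4%). Members were chosen by the H3K9ac peak calls: a peak counted as one when it shared no base with any control H3K9ac peak and when its centre lay more than 10 kb from the start of the closest gene in the authors' annotation columns, which include noncoding genes. The H3K9ac calls of both libraries and the distance were thus used for the choice and are given as a description. Chromosomes 1 to 22 and X were used.

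The cells were KGN, a line derived from a human granulosa cell tumour of the ovary, which stands as a model for granulosa cells but is 1 tumour line. They were given 1 mM butyrate for 6 h, and the control cells were kept without it. Each of the 2 groups had 1 library for H3K9ac, 1 for H4K16ac, 1 for a nonspecific immunoglobulin (IgG) and 1 for input chromatin. Peak lists of 6 of the 8 samples were analysed, and the 2 input samples were not analysed here. With 1 library per condition and mark, differences between butyrate and control are differences between 2 libraries, no p-value can be given, and the 95% intervals below are exact binomial intervals that cover the counting of peaks or genes only. The granulosa label was checked on 12 marker genes, of which 6 had an H3K9ac peak within 1 kb of a RefSeq start with butyrate and 4 in control. Of the 15812 protein-coding genes with a listed start, 9127 had such a peak in control, a larger share than among the markers. In both libraries 9099 had one, and with butyrate only 1308, so the butyrate share was larger too. These counts thus do not bear out the label. FOXL2, the granulosa transcription factor, CYP11A1, INHA and INHBB had such a peak in both libraries, whereas FSHR, CYP19A1, NR5A1 and AMH had none in either.

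Histone acetylation loosens the contact between DNA and nucleosomes and is removed by histone deacetylases, which butyrate inhibits. At gene starts H3K9ac goes with active promoters, and away from starts it is found at active enhancers, the elements that act on promoters over distance. H4K16ac is placed mainly by the acetyltransferase KAT8 and is spread over transcribed chromatin.

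A genome sequence was not used here, but 41 promoter windows of 37 protein-coding genes in the RefSeq table (GRCh38.p14) lay wholly inside gained distal peaks, so that for these peaks the underlying sequence can be shown. They are distal by the authors' start and hold a RefSeq start of the same or another gene. The windows of the 4 genes with the strongest such peaks follow, with that of PPARGC1A, the coactivator of PPAR-gamma and of mitochondrial genes, which was chosen for its place in the list of PPAR genes. Each line is the 250 bases upstream of the RefSeq start, 5′ to 3′ on the gene's strand, and capitals mark CpG dinucleotides, the sites of DNA methylation that are dense in CpG island promoters.
ACOT7: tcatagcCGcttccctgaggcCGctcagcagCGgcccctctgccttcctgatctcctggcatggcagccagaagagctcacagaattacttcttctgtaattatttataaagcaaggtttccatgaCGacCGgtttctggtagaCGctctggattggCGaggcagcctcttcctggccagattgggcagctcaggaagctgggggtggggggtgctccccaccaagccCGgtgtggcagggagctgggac
PPCDC: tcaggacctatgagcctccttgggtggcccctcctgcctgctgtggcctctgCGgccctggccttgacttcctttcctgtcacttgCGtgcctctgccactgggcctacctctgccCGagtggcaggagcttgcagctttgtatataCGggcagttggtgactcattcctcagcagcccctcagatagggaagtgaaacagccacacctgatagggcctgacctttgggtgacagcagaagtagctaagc
SEMA5B: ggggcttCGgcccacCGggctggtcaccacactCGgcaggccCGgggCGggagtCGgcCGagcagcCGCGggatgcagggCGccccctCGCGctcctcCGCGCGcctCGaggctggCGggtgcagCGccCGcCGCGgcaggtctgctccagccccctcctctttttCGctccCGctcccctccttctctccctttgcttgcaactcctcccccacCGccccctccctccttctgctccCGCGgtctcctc
DOCK10: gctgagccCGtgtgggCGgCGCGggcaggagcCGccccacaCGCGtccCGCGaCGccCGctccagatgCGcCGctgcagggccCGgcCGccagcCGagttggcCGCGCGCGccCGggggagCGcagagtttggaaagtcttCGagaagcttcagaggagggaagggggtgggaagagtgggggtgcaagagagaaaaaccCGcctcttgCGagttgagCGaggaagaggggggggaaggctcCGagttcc
PPARGC1A: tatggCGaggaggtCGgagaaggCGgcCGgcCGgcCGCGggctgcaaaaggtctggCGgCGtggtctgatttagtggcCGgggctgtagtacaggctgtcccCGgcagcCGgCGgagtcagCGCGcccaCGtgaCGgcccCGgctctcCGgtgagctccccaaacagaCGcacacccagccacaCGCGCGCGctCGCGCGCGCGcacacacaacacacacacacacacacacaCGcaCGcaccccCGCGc
The windows lie at chr1:6358930-6359179 on the minus strand (ACOT7), chr15:75043036-75043285 on the plus strand (PPCDC), chr3:123027764-123028013 on the minus strand (SEMA5B), chr2:225042469-225042718 on the minus strand (DOCK10) and chr4:24472906-24473155 on the minus strand (PPARGC1A).

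These 5 windows were of 2 kinds. Those of SEMA5B, a semaphorin, DOCK10, an activator of small GTPases, and PPARGC1A held 26, 27 and 33 CpG dinucleotides, and those of ACOT7, an acyl-CoA thioesterase, and PPCDC, an enzyme of coenzyme A synthesis, held 8 and 4. Over the 41 windows the number ran from 1 to 48 with a median of 11, against a median of 16 over all 22132 protein-coding windows in the table. The ACOT7 peak had 24 fragments over its summit where 2.96 were estimated as background, and the PPCDC peak had 30 over 4.85. The peak at PPARGC1A, at 24472607 to 24473370 on chromosome 4, had 20 fragments over a background of 2.73, and the nearest control H3K9ac peak was 110 kb away. At DOCK10 it was 456 kb away. Some members thus lay near starts that the authors' annotation does not give: 334 members (1.34%) lay within 1 kb of a protein-coding RefSeq start, 708 (2.84%) within 1 kb of any RefSeq start in the table and 3904 (15.7%) within 10 kb of one. Of the 2052 distal peaks present in both conditions, 630 (30.7%) lay within 1 kb of a RefSeq start, a larger share than among members.

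The gained distal peaks were narrow and weak one by one. Their median width was 397 bp (quartiles 299 and 575 bp), and 86.2% had a single summit. From the deposited fold and p, the number of fragments over the strongest summit could be recovered exactly, and its median was 14 in members over a local background of 3.64 fragments. The fold, which is the authors' ratio of summit pileup to local background with 1 added to each, had a median of 3.22. Distal peaks present in both conditions had a median of 24 fragments, a fold of 5.08 and a width of 1180 bp in the butyrate list, and at the same places a median of 19 fragments, a fold of 4.54 and a width of 608 bp in the control list. Gained peaks 1 to 10 kb from a start, 30398 in number, had a median of 14 fragments, a fold of 3.21 and a width of 405 bp. In these measures the members were like the gained peaks nearer to genes and unlike the distal peaks that control cells already had. The measures come from the same H3K9ac lists that set the classes. Peaks present in both conditions had to pass the limits of both lists, so this contrast follows in part from the rule and is a description. Of all butyrate peaks 77.0% had no control overlap, and of all those over 10 kb from a start 92.4%.

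**Figure D1:**
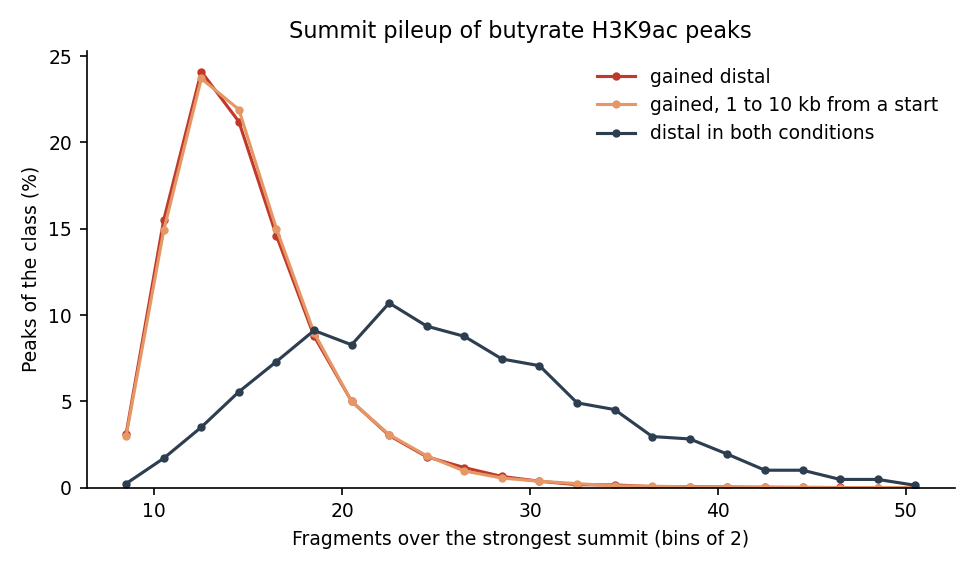
Share of peaks (%) by the number of fragments over the strongest summit in the butyrate H3K9ac library, for gained distal peaks, gained peaks 1 to 10 kb from a start, and distal peaks present in both conditions. Both gained classes have a median of 14 fragments and overlap almost completely, and the peaks present in both conditions have a median of 24.

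How far the absence of a control peak can be read depends on depth and on the limit of the lists. The implied depth was 29.4 M reads in the butyrate H3K9ac library and 24.3 M in the control one. The lowest −log10 p was 2.97 in the butyrate list and 3.46 in the control list, and 3027 members (12.1%) fell below the control limit, so that a control peak of the same p would not have been listed. When summit and background of each member were scaled to the control background, 15975 members (64.1%) still reached the control limit, against 96.1% of the distal peaks present in both conditions. For the other members a gain of the mark and the greater depth of the butyrate library cannot be told apart. For those that passed, the scaling factor, 0.767, reflected fragment length as well as depth. It did not allow for counting error or for differences in immunoprecipitation between the 2 libraries, so a gain was not tested for them either. The IgG lists held 2 peaks with butyrate and 5 in control on these chromosomes, too few for their overlap with members, which was 0 in both, to bear on nonspecific signal.

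The measures did not jump at the limit of 10 kb. The 3 members just above it, inside SRCIN1 and near SYCN and EPOP, lay 10001, 10001 and 10002 bp from a start with folds of 3.69, 3.07 and 3.13. The 3 gained peaks at the limit, inside TCP11L1, near DNAJC22 and inside TM2D3, lay at 10000 bp with folds of 3.49, 2.88 and 3.32. The 3222 members between 10 and 12 kb had a median fold of 3.21, as had the 3943 gained peaks between 8 and 10 kb.

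Members lay at a median of 21.2 kb from the closest start. Of them 13286 (53.3%) lay beyond 20 kb, 3214 (12.9%) beyond 50 kb and 552 (2.21%) beyond 100 kb. Downstream of that start lay 56.8% and upstream 43.2%. The farthest, a weak peak of 10 fragments on chromosome 18 (40867473 to 40867761), was 613451 bp from a start, and the next ones lay on chromosome 22 (11706272 to 11706859) and chromosome 2 (94211915 to 94213207), both beside centromeres.

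A protein-coding gene of the RefSeq table was overlapped by 15520 members, 62.3% (61.7 to 62.9), against 66.4% of all butyrate H3K9ac peaks, members included. The share was 63.0% (62.4 to 63.5) among gained peaks 1 to 10 kb from a start and 65.6% (63.5 to 67.7) among distal peaks present in both conditions. In the authors' columns, which use another gene annotation, the centre of 53.9% of members lay in introns, 1.81% in exons, 1.76% in UTRs and 42.0% in no gene.

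Members came in runs. Neighbours were joined at the gap limit that the ROSE tool uses by default to stitch enhancers, which lies between the 5 and 25 kb tried as alternatives. Of the members 79.3% (78.8 to 79.8) then had another member beside them, and 5158 stood alone. There were 352 runs of 10 or more members, which held 5123 members (20.6%), and 58 runs of 20 or more. Members of such long runs had a median of 15 fragments, a width of 462 bp and a background of 3.87 fragments, against 13 fragments, 348 bp and 3.37 for members that stood alone. The local background moved with the runs, and its part in them was not tested. The nearest control H3K9ac peak was a median of 15.8 kb away from members of long runs and 38.6 kb away from lone ones.

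The longest runs lay over large parts of single genes or between genes. At WNT7B, which encodes a signalling ligand of the WNT family, 35 members lay between 45897944 and 45965877 on chromosome 22 and covered 41.7% of these 67.9 kb. The control H3K9ac list had 1 peak in the run, the butyrate H4K16ac list 4 and the control H4K16ac list 2. The summits ran from a fold of 2.21 to 6.22 with a median of 3.28. At HPCAL1, a neuronal calcium sensor gene on chromosome 2 (10337680 to 10435017), there were 35 members among 42 butyrate H3K9ac peaks, against 8 control H3K9ac peaks, and H4K16ac had 7 peaks with butyrate and 19 in control. At HPCAL1 the control H3K9ac peaks lay in the part of the run from 47.7 kb onwards, with members among them, and the part before that held members and no control peak.

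**Figure D2:**
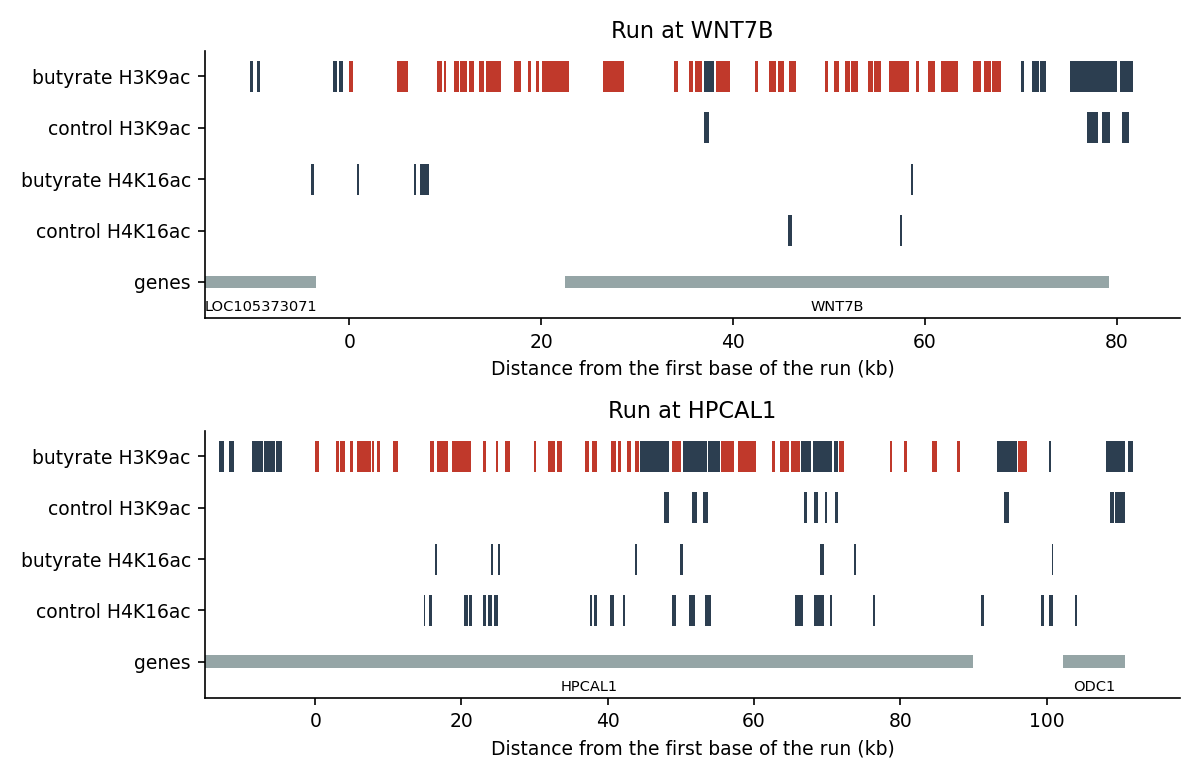
Peaks of the 4 histone lists and protein-coding genes (grey) along the runs at WNT7B and HPCAL1, by distance in kb from the first base of the run; red boxes are gained distal peaks and dark boxes other peaks. The WNT7B run holds 35 gained distal peaks and 1 control H3K9ac peak, and the HPCAL1 run 35 and 8.

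The run with the most members, 36, lay in 87.9 kb of chromosome 2 (43126424 to 43214327) without a protein-coding gene, and held 1 control H3K9ac peak. Others lay at GALNT2, a glycosyltransferase gene, with 33 members, across part of the noncoding gene PVT1 on chromosome 8 with 32, at TMCC2 and NUAK2 with 31, and at RAI1, a transcriptional regulator, with 31. ELL, an elongation factor of RNA polymerase II, and NFIC, a nuclear factor I gene, had runs of 30, as had TCF20. Control H3K9ac peaks inside these runs numbered 1 at GALNT2, 5 at PVT1, 1 at TMCC2 and NUAK2, 3 at RAI1, 1 at ELL, 4 at NFIC and 2 at TCF20.

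A few single members stood far above the median of 14 fragments. The highest −log10 q, 26.5, belonged to a peak of 1786 bp beside the centromere of chromosome 2 (91477725 to 91479510) with 50 fragments over a background of 5.24. The next was inside PLCH2, a phospholipase C gene, at 2473284 to 2475056 on chromosome 1, with 38 fragments over 3.15 and a fold of 9.39, the highest of all members. The nearest control H3K9ac peak was 49.4 kb away. Within the PVT1 run a peak at 127860148 to 127861490 had 40 fragments over 3.66. Further members of the 10 strongest lay inside NFIC (46 fragments over 5.34), LGALS9C (42 over 4.61), TRIO (52 over 7.73), HDAC5 (33 over 2.73) and MYH9 (42 over 5.09), in an intron of AHRR by the authors' columns (63 over 10.9) and 17.7 kb from LSAMP (39 over 4.37). LGALS9C belongs to a family with near-identical copies. Some of these stood close to a control peak, 0.246 kb away at NFIC, 0.097 kb near LSAMP and 1.27 kb at AHRR. These 3 thus lay next to a site already called in control cells, and a gain apart from that site was not tested. ABHD12 and ELOVL5, an elongase of fatty acids, held members with folds of 8.55 and 8.43.

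Widths reached 6646 bp. That peak lay at SLC13A2 (28495001 to 28501646 on chromosome 17) and had 15 summits, the strongest with 24 fragments. In MYH9, the heavy chain of nonmuscle myosin, a peak of 4654 bp with 10 summits lay in intron 3. The other 3 of the 5 widest lay in JADE2 (4614 bp), 3.31 kb from IL1R1 (4239 bp) and in gene-poor sequence on chromosome 20 (3707 bp).

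The H4K16ac libraries were not used to choose the members. The lists differed in size, with 33752 peaks over 11.9 Mb with butyrate and 73586 peaks over 30.7 Mb in control, so each share below is read against the other classes within the same list and not between the lists. A control H4K16ac peak was overlapped by 2697 members, 10.8% (10.4 to 11.2), and a butyrate H4K16ac peak by 1220, 4.89% (4.63 to 5.17). Over all butyrate H3K9ac peaks, members included, 13.5% overlapped a control H4K16ac peak and 5.04% a butyrate one. By number of peaks the members' share was thus below the overall share in the control list and near it in the butyrate list. Among gained peaks 1 to 10 kb from a start the share was 11.3% (10.9 to 11.6) in the control and 5.68% (5.43 to 5.95) in the butyrate H4K16ac list. Among distal peaks present in both conditions it was 26.8% (24.9 to 28.8) in the control and 5.99% (5.01 to 7.11) in the butyrate H4K16ac list. Since these peaks are wider, the share of bases is the closer comparison. It was 6.32% in members and 10.6% in distal peaks present in both conditions for control H4K16ac, and 2.23% and 1.4% for butyrate H4K16ac. Gained peaks 1 to 10 kb from a start had 6.29% and 2.54%, and all butyrate H3K9ac peaks 6.6% and 1.65%. By bases the members' share was thus near the overall share in the control list and above it in the butyrate list. At 17 to 22 fragments over the summit, 14% of members (13.1 to 15) and 25.9% of the peaks present in both conditions (22.2 to 29.8) lay on control H4K16ac, at median widths of 497 and 948 bp. At 23 or more fragments it was 19.8% and 30.5%, at median widths of 774 and 1520 bp. As a share of bases the difference was smaller, 7.67% in members and 10.9% in peaks present in both conditions at 17 to 22 fragments, and 9.43% and 10.9% at 23 or more. Few of the butyrate H4K16ac peaks were strong, and with a q of at most 0.05 in that list 21 members (0.0842%) remained on one. The peak names of both H4K16ac lists carry the letters k12, so H4K16ac here means the libraries so labelled.

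Around the centres of members H4K16ac formed a low and broad rise. Control H4K16ac peaks covered 5.54% of the bases at the centre, 4.54% at about 10 kb and 3.77% at 40 to 50 kb to either side, so that the centre stood 1.22 times above its surroundings at 10 kb. Around distal peaks present in both conditions it was 9.66%, 5.73% and 4.0%, which is 1.69 times. Around gained peaks 1 to 10 kb from a start the centre stood 1.23 times above its surroundings at 10 kb. In the butyrate H4K16ac list the centre of members had 2.09%, the flanks at 2 to 4 kb 2.47% and the surroundings at 10 kb 2.18%. The centre of the peaks present in both conditions had 1.07%, less than the 2.94% at 2 to 4 kb. The dip at the centre was thus 0.846 times the flank in members and 0.364 times in the peaks present in both conditions, while in the control list both centres were above the flanks.

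**Figure D3:**
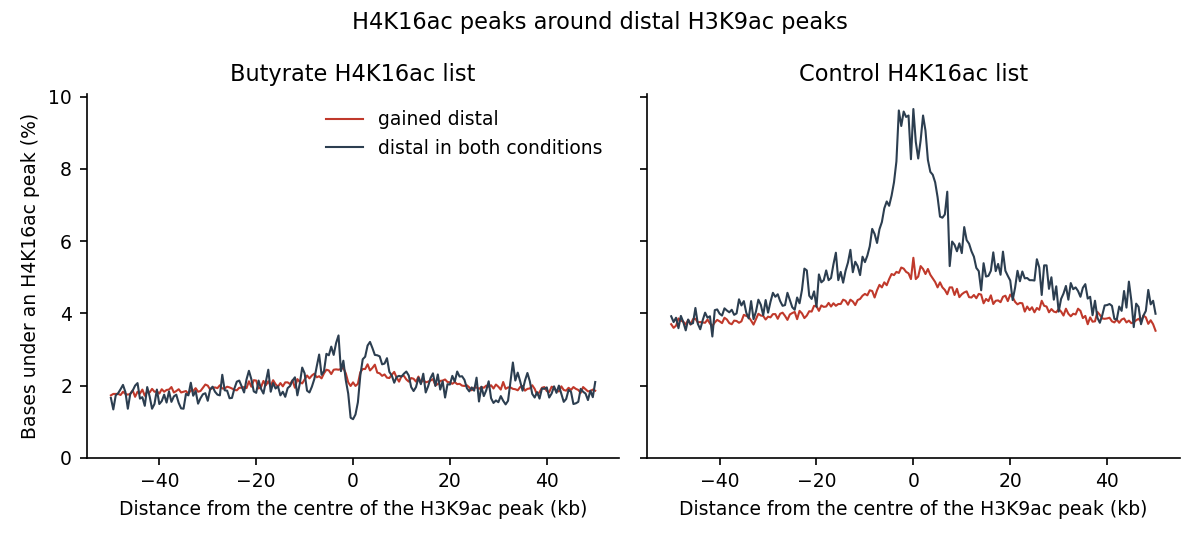
Share of bases (%) under an H4K16ac peak of the butyrate list and of the control list by distance in kb from the centre of gained distal H3K9ac peaks (24928) and of distal H3K9ac peaks present in both conditions (2052), in bins of 500 bp. Control H4K16ac reaches 5.54% and 9.66% at the centre, and butyrate H4K16ac 2.09% and 1.07%.

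Members in long runs lay on H4K16ac more often than lone members. In runs of 10 or more, 16.7% (15.7 to 17.7) overlapped a control H4K16ac peak, against 6.13% (5.49 to 6.82) of lone members, and 8.51% (7.76 to 9.31) against 2.29% (1.9 to 2.73) overlapped a butyrate one. As a share of bases it was 8.74% against 3.27% for control H4K16ac and 3.64% against 1.02% for butyrate H4K16ac. The higher local background in the runs, given above, moves with both marks, and its part was not tested. Among the strongest members on control H4K16ac were those in LGALS9C and HDAC5, with 281 and 367 shared bases, and those in GLI2, a transcription factor of the hedgehog pathway, CROCC and ABHD12, with 658, 525 and 297. None of these 5 overlapped a butyrate H4K16ac peak. Few members did, 4.89% of all and 8.19% of those with 23 or more fragments over the summit.

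By gene, the members were concentrated. Of 19974 protein-coding genes 4156 (20.8%) held the centre of at least 1 member and 377 (1.89%) held 10 or more. These 377 genes held 39.0% of the members inside genes. The number did not grow in proportion to gene length. Genes of 50 to 100 kb had 2.09 members per 100 kb, those of 200 to 500 kb 0.886 and those above 500 kb 0.276. Genes up to 20 kb had 0.618, since little of such a gene can lie over 10 kb from a start.

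Genes with H3K9ac at their start held members more often than genes without it. Among 15812 genes with a RefSeq start in the table used, 1308 had a peak within 1 kb of a start with butyrate only, and of these 24.9% (22.6 to 27.4) held a member. It was 27.5% (26.6 to 28.4) of the 9099 genes marked in both libraries and 9.58% (8.8 to 10.4) of the 5377 marked in neither. Among genes of 50 kb or more the shares were 51.4%, 49.3% and 22.2%. Per 100 kb of gene the numbers were 1.48, 1.73 and 0.392. Promoter marking and members come from the same H3K9ac libraries, so this is a description and not independent support.

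The density of members was lower in stretches far from the gene's start than in stretches near it, but these come from different genes. Only long genes reach far: among genes marked in both libraries, 7256 contributed at 10 to 20 kb and 572 beyond 200 kb. Longer genes had fewer members per 100 kb, as given above, so position and gene length were not separated. In genes marked in both libraries there were 3.26 members per 100 kb at 10 to 20 kb from the gene's start, 1.77 at 50 to 100 kb and 0.866 beyond 200 kb. In genes marked with butyrate only it was 3.63, 1.88 and 0.383, and in genes marked in neither 0.842, 0.449 and 0.197. The last class did not fall at each step, since it had 0.966 at 20 to 30 kb.

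**Figure D4:**
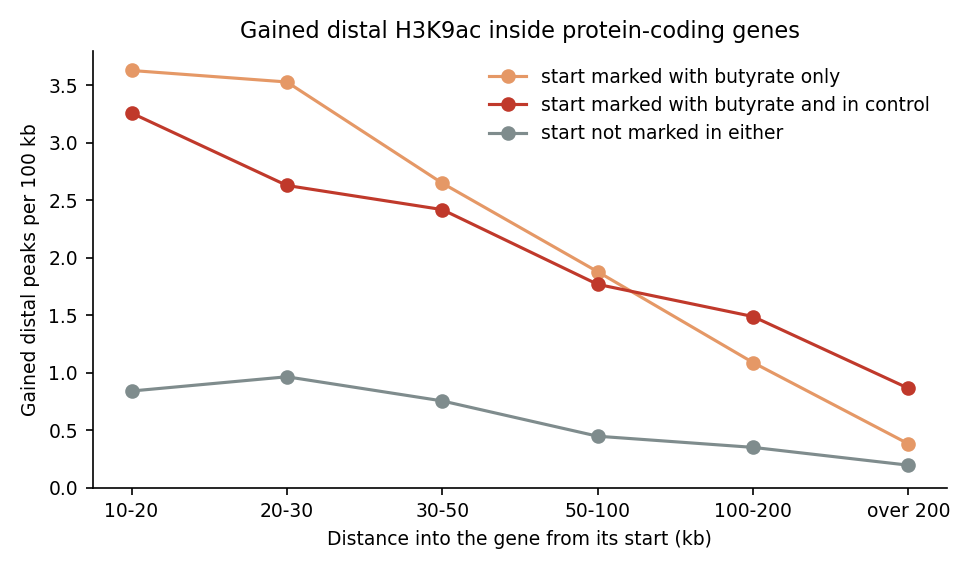
Gained distal H3K9ac peaks per 100 kb of protein-coding gene by distance from the gene's start in kb, for genes with an H3K9ac peak at the start with butyrate only, in butyrate and control, or in neither. At 10 to 20 kb the values are 3.63, 3.26 and 0.842. Fewer and longer genes contribute at greater distances.

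GSE1, a subunit of a corepressor complex, had the most members, 76 in 507 kb. CUX1, a homeobox factor, had 57, and BCAR3 and RAP1GAP2, which act in adhesion and small GTPase signalling, had 54 and 53. PDE4D, a phosphodiesterase that breaks down cyclic AMP, had 52 in 1550 kb and CAMTA1, a transcription activator, 50 in 984 kb. KIAA1671 had 40, TNS3 and ZMIZ1 39 each, OSBP2 38 and WWC1 36. Per length, among genes of 50 kb or more, WNT7B led with 38.7 members per 100 kb, followed by ELL with 37.8, the lipid kinase PIK3C2B with 36.0 and the galactosyltransferase B4GALT1 with 34.6. AHDC1 had 32.9, the taurine transporter SLC6A6 32.3, and ERGIC1 and RAP1GAP 28.7 each. TSC22D3, a glucocorticoid-induced gene, stood at 28.7 as well, and SMAD6 at 28.5. By comparison all protein-coding genes together had 1.22 per 100 kb.

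Among 14 gene lists, actin and focal adhesion genes had the most members per length. At least 1 member was held by 17 of 23 genes, with a median of 6 members per gene, against 20.8% and a median of 0 over all genes, and the density was 5.85 per 100 kb. The median gene length was 108 kb here and 24.2 kb over all genes, and of protein-coding genes of 50 kb or more 41.1% held a member. TNS3, a tensin, had 39, MYH9 29 and MYO1E, a class I myosin, 27. All 21 genes of the list whose RefSeq start is listed had a control H3K9ac peak at the start. Such a peak was found at 9127 of 15812 protein-coding genes with a listed start, and at 3201 of 5133 of those of 50 kb or more.

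Deacetylases and corepressors, a list that includes enzymes that butyrate inhibits, had members in 12 of 22 genes (54.5%), 5.0 per 100 kb. Their median length was 71.7 kb. The share was 20.8% over all protein-coding genes and 41.1% over those of 50 kb or more. GSE1 had 76 of the 187 members, and ZMIZ1, a transcriptional coregulator, had 39. Of the class IIa deacetylases, HDAC4 and HDAC5 had 15 and 11, HDAC7 had 1, and HDAC9, of 916 kb, had none. HDAC11 had 9, and HDAC1 had 1.

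Genes of the TGF-beta pathway, through which granulosa cells read activin, BMP and AMH, held members in 10 of 28 genes (35.7%), 3.89 per 100 kb. Their median length was 48.0 kb, against 24.2 kb and a share of 20.8% over all protein-coding genes. SMAD3, which carries activin and TGF-beta signals, had 24 members. The inhibitory SMAD6 and SMAD7 had 23 and 13, and the coreceptor TGFBR3 had 14. Of ligand genes, BMP6 had 4 and TGFB1 had 1. INHA, INHBA, INHBB and FST, which encode inhibin and activin subunits and the activin antagonist follistatin, had none, but INHA, INHBB and FST are 3.4, 5.67 and 6.51 kb long and can hardly hold sequence over 10 kb from a start. Of the receptor genes, ACVR1B had 2 members and ACVR2B had 1. Long receptor genes without a member were BMPR1B, BMPR2, BMPR1A, ACVR1, TGFBR2, ACVR2A and TGFBR1, of 400, 191, 177, 140, 87.8, 86.3 and 50.5 kb. AMHR2, of 7.82 kb, had none either.

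Hippo pathway and TEAD genes, which control growth through YAP1, held members in 12 of 22 (54.5%), 4.24 per 100 kb, at a median length of 84.9 kb. The share was 20.8% over all protein-coding genes and 41.1% over those of 50 kb or more. The upstream regulator WWC1 had 36 members, the DNA-binding partner TEAD1 29, YAP1 itself 9 and NF2 7. WNT genes, with a median length of 46.7 kb, held members in 12 of 29 (41.4%), 3.51 per 100 kb. There were 22 in WNT7B, 16 in the receptor ROR2, 12 in the receptor LGR4 and 9 in DKK3, of the Dickkopf family.

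Of the steroidogenesis and cyclic AMP list 12 of 24 genes held members, 2.68 per 100 kb, at a median length of 86.6 kb. The most were in PDE4D with 52, SCARB1, the HDL receptor, with 15, the adenylyl cyclase ADCY9 with 13 and the phosphodiesterase PDE4B with 10. The steroidogenic enzyme gene CYP11A1 had 1, and CYP19A1, FSHR and LHCGR, of 131, 192 and 69 kb, had none. STAR and CYP17A1 had none either, but at 8.25 and 6.88 kb they are shorter than the distal limit. In the PPAR and lipid list 12 of 24 genes held members, 2.64 per 100 kb, at a median length of 57.6 kb. There were 26 in RXRA, the heterodimer partner of the PPARs, 9 in PPARGC1A, 6 in PPARGC1B and 5 in SCD. For comparison with both lists, 20.8% of all protein-coding genes and 41.1% of those of 50 kb or more held a member.

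Other lists were carried by 1 or 2 genes. Median lengths were 10.4 kb in the inflammatory, 42.2 kb in the granulosa factor and 94.4 kb in the collagen and matrix list. The share of genes with a member was 20.8% over all protein-coding genes, 3.34% over those up to 20 kb and 41.1% over those of 50 kb or more. In the order named, these lists had 5.38, 1.88 and 1.56 members per 100 kb, against 1.22 over all protein-coding genes. STAT3, a cytokine-activated factor, held 21 of the 31 members of the inflammatory list, in which 5 of 20 genes had any, followed by IL6R with 5 and IL1R1 with 3. Granulosa transcription factors had members in 6 of 20 genes, with 16 in RUNX1, 12 in NR4A1 and 3 in CREB1. COL5A1 had 18 of the 37 members of the collagen and matrix list, in which 10 of 22 genes had any. Genes of the next 2 lists are short, with median lengths of 13.9 and 7.17 kb, and had 1.67 and 0.707 members per 100 kb. The cell cycle list had members in 4 of 19 genes, with 6 in CCND3 and 4 in CDK6, and the AP-1 list in 3 of 19, with 3 each in ATF3 and FOSL2.

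The long cadherin and neuronal adhesion genes, with a median length of 1200 kb, had few members for their length. At least 1 member was held by 8 of 23 genes (34.8%), against 38.9% of all genes above 500 kb. They had 26 members in all, 0.0879 per 100 kb, against 0.276 in genes above 500 kb, with 9 in TENM2, 7 in NRXN2 and 5 in DLG2. Of the 16 genes whose RefSeq start is listed, 3 had a control H3K9ac peak there, against 3201 of 5133 protein-coding genes of 50 kb or more. Ribosomal protein genes had 0 members in 19 genes, but their median length of 4.45 kb leaves hardly any sequence over 10 kb from a start.

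**Figure D5:**
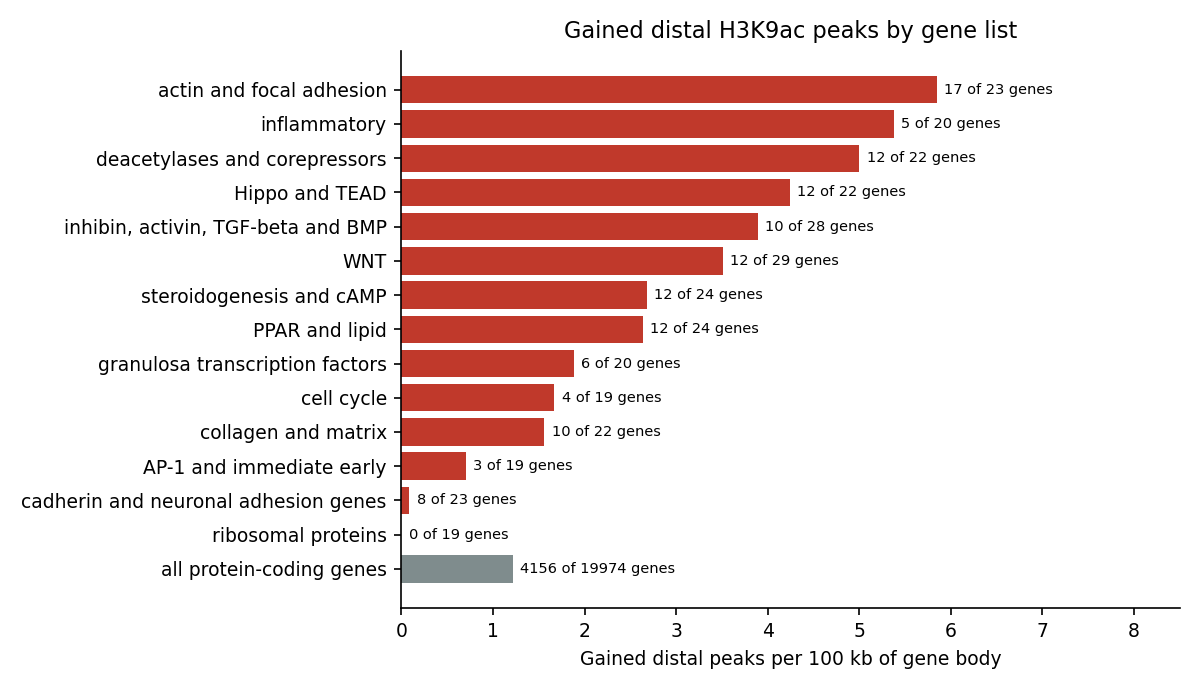
Gained distal H3K9ac peaks per 100 kb of gene body in 14 gene lists (red) and in all protein-coding genes (grey), with the number of genes that hold at least 1. Actin and focal adhesion genes have 5.85 per 100 kb, all genes 1.22 and the cadherin and neuronal adhesion genes 0.0879.

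Of the granulosa markers 1 of 12 genes held a member, CYP11A1 with 1, against 20.8% of all protein-coding genes and 3.34% of those up to 20 kb. FOXL2, AMH, AMHR2, INHA, INHBB and FST are 2.75 to 7.82 kb long and can hardly hold a member. FSHR and CYP19A1, of 192 and 131 kb, had none either. Endothelial markers had 13 members in 4 of 7 genes, led by PECAM1 with 5, and neuron markers 9 in 2 of 7, of which RBFOX3 had 8. Epithelial, blood and immune, and oocyte markers had 3, 3 and 2, and theca and stroma markers 0. An H3K9ac peak at a RefSeq start was found with butyrate and in control at 1 and 0 of 3 endothelial, 3 and 1 of 6 neuron, 2 and 1 of 3 epithelial, 2 and 0 of 5 blood and immune, 2 and 2 of 7 oocyte and 1 and 1 of 4 theca and stroma markers that have a start in the table.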

How the data were processed

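Cells, antibodies and groups are as in the labels. CASAVA 1.7 and MACS2 2.1.0 are named in the submitters' processing notes, with hg19 (GRCh37) as build. Aligner settings and duplicate filter were not given in the sources used. Each deposited list holds 1 library's narrow peaks, with fold (a ratio), −log10 p and −log10 q per summit and a score, per the file headers. As deposited, the score restates −log10 q (H3K9ac, IgG) or −log10 p (H4K16ac) times 10. The authors added Ensembl genes and distances. Distances run from the peak centre to the start of the closest gene.

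Gene starts in the butyrate H3K9ac list lay a median of 63 bp from RefSeq starts of GRCh38.p14 (12308 genes, 98.9% within 100 kb), so positions are read as GRCh38. Printed starts have 1 added. Rows that share bases were merged, and overlap means at least 1 bp. Summit pileup and background were solved from fold, (pileup + 1)/(background + 1), and the Poisson p, within 0.001 on the −log10 p scale for 100% of H3K9ac peaks. Implied depth assumes a genome of 2.7 Gb. Depth was not computed for H4K16ac and IgG. Control promoter marking used a window of 1 kb around RefSeq starts. Genes named are the 12 with the most members, the 8 with the most per 100 kb (50 kb or longer), up to 4 per list, the 10 strongest members by −log10 q, the 5 by fold, the 5 widest, the 5 strongest on control H4K16ac, the 3 farthest, the 8 longest runs and those at the limit. SMAD6, BMP6, ACVR1B, TSC22D3, HDAC11, TCF20, PECAM1, RBFOX3, the promoter windows and genes at 0 or 1 in a list were named after their values were seen. A few names due under these choices are not reported here. The members, lists and rules were chosen with earlier results of these data known. Peak overlap, pileup recovery and run building were tested on simulated data. Python 3.11.15, NumPy 2.4.6, pandas 2.3.3, SciPy 1.17.1 and Matplotlib 3.10.9 were used. Alternatives were peak strength, list limits and lengths, overlap, distance, gene starts and gap length.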

Additional observations from a re-analysis of the deposited data

How the results depend on the processing

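The number of gained distal peaks depended on peak strength and on what counts as distal. The 24928 members became 12832 at a −log10 q of 3 or more, 1050 at a fold of at least 5, 3085 when each list was limited to the same number of top peaks, 3214 beyond 50 kb, 15048 when both ends of RefSeq genes had to be over 10 kb away, and 15975 when scaled to the control background, an alternative chosen after seeing the data. With both lists at the same −log10 p limit it was 21901, and with no control peak within 1 kb 23804.

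The share inside protein-coding genes, 62.3%, was 60.8% at that q, 57.2% at that fold, 56.8% with equal numbers, 64.7% beyond 50 kb, 68.9% away from RefSeq gene ends and 61.3% when scaled. The share on control H4K16ac, 10.8%, was 12.6%, 21.2%, 18.2%, 9.74% and 12% at that q, at that fold, with equal numbers, beyond 50 kb and when scaled. It was 11.2% at the same p limit, 10.4% with no control peak within 1 kb, 5.42% with H4K16ac peaks of q up to 0.05 and 7.89% when the overlap had to reach 50% of the shorter peak. The share in runs, 79.3%, was 69.5% at that q, 26.0% at that fold, 45.6% with equal numbers, 77.4% at the same p limit, 78.4% with no control peak within 1 kb, 72.5% beyond 50 kb, 75.8% away from RefSeq gene ends and 72.8% when scaled. With gaps of 5 and 25 kb it was 70.1% and 84.3%. With fewer members kept, neighbours are farther apart by construction; the causes of the other moves were not tested.

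No paired analysis was possible because each group has 1 library, and no replicate was left out, for the same reason. The motif counts planned for the peak sequences were not run, since a genome was not used here. The interval of a share covers counting of peaks only, and the spread between cultures is unknown.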

Other observations

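The members were spread unevenly over the chromosomes. Chromosomes 19, 22 and 17 had 23.2, 22.9 and 19.9 members per Mb of the stretch up to the last RefSeq gene, and chromosomes 4, 13, 14 and X had 1.46, 2.23, 2.74 and 3.08. Per protein-coding gene chromosome 22 had 2.58 members and chromosome 4 had 0.361. Gene-rich chromosome 19 had 0.938. For each distal peak present in both conditions there were 18.5 members on chromosome 20 and 16.6 on chromosome 22, against 5.67 on chromosome 4, 6.1 on chromosome 14 and 6.59 on the X chromosome. Copy number in this tumour line was not measured in the files used here, and its part in these values was not tested.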
